A study of Rattus norvegicus with 80 samples.

Results

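The comparison is of rat lungs 3 days after cellulose nanofibrils were placed in the airways, at the dose labelled 2.0 mg/kg, with lungs given the vehicle alone. Its members are 6 of the 80 arrays of the series: the array of that dose and the vehicle array for each of the preparations CNF1, CNF2 and CNF3, chosen by the array titles and paired by preparation. All rats were male Sprague-Dawley (Crl:CD[SD]) animals bought at 7 weeks of age, and the vehicle was distilled water that also held preservatives, instilled once through the trachea. The series also holds other doses, other days and multi-walled carbon nanotubes, with 1 array for each material, dose and day. The array labels state the dose as 2.0 mg/kg, but the treatment protocol speaks of 1 mg/kg for every rat and uses the same number, 2.0, for a suspension in mg/mL; the form on the array labels is used here. The extraction protocol names 4 rats per group and time, the right lungs were used after perfusion with saline, and the labels do not say whether an array holds the RNA of 1 rat or of a pool.

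Cellulose nanofibrils are thin fibres split from plant cell walls. Mammals have no enzyme that digests cellulose, so fibres that reach the alveoli are cleared mainly by macrophages, which engulf them, secrete chemokines and proteases and degrade what they can in lysosomes. Neutrophils usually enter the airways first, monocytes follow and become macrophages, and the epithelium repairs itself by cell division.

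Values were on a log2 scale, already normalized by the authors and set around a centre for each probe, so 0 is near the middle of a probe's values over the series and a level cannot be compared between genes. Neither signal levels nor detection calls were used here, so the lung identity of the tissue could not be checked by the level of its markers. A difference of 1 is 2-fold. Each preparation has 1 pair of arrays, so the spread in every test is that between preparations, and p-values measure only that.

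The test planned for the comparison, a limma fit of the 6 arrays with the preparation as a block, passed 0 of 15925 genes (0.0%) at a Benjamini-Hochberg adjusted p under 0.05. The smallest adjusted p was 0.104, while 4084 genes (25.6%) had an unadjusted p under 0.05. With 2 residual degrees of freedom this fit recovered 0% of the genes changed 2-fold and 27% of those changed 4-fold in simulated data. That simulation changed only 100 genes at each fold and took each gene's spread from the same few arrays. Its recovery rates need not hold for the measured data. No gene below passed the planned test. When each array was first centred on the median of its rat probes, 1037 genes (6.51%) passed, 728 of them higher (4.57%) and 309 lower (1.94%) after exposure. Under quantile normalization 1584 passed, 901 higher and 683 lower, so the higher share of the calls depended on the scaling. The centred setting had been listed as an alternative, but it was taken as the source of the calls below only after the counts under all settings were known, and over all settings run these ranged from 0 to 7373. "Passed" below means passed with centred arrays, except in the contrasts between days, which use the values as deposited. Of the 1037 genes, all had the same sign in the 3 pairs, 1002 had groups that did not overlap, and 927 also passed after quantile normalization. The test picks genes with steady pair differences, so the first 2 counts follow largely from the selection. Over all 15925 genes, 4706 were higher and 4000 lower in all 3 pairs. Groups did not overlap in 21.8% of all genes with the exposed arrays higher and in 14.8% with them lower. The count was 140 without CNF1, 663 without CNF2 and 2476 without CNF3, and 230 without the block.

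Array-wide values differed between the pairs. The median over rat probes was -0.247 on the exposed CNF1 array, -0.043 on that of CNF2 and 0.036 on that of CNF3, against 0.004, -0.062 and -0.003 on their vehicle arrays. The 91 control spots, which hold no gene of the lists, had a median difference from the vehicle of -0.84 for CNF1, 0.68 for CNF2 and 0.29 for CNF3. The 1039 olfactory receptor genes, which serve smell and are mostly silent outside the nose, had medians of -0.86, 0.52 and 0.14. Other summaries of the control spots differed for CNF1: their median on the array was 0.04 with the vehicle and 0.084 after exposure, and the 15 spike-in and negative spots among them had a median difference of 0.66. The part of these shifts in the gene differences was not tested.

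Among the genes with the largest differences were secreted proteases and a glycoprotein of macrophages. Spp1, which encodes the secreted glycoprotein osteopontin, stood at -4.32, -4.25 and -3.57 on the vehicle arrays of CNF1, CNF2 and CNF3 and at 3.0, 2.09 and 1.8 on the exposed arrays. Its mean difference was 6.35 ± 0.4 (SE, n = 3 pairs), with an adjusted p of 0.00064 with centred arrays and 0.1 in the planned test. The groups did not overlap, and CNF1 had the largest difference, as in 14 of the 20 leading higher genes. Mmp7, the protease matrilysin, had the largest mean difference of the named genes, 6.81 ± 1.09, and its pairs differed by 8.72, 8.15 and 3.57. Mmp12, macrophage metalloelastase, was at -3.68, -3.28 and -3.88 with the vehicle and at 3.67, 2.68 and -0.06 after exposure. Mmp9, gelatinase B, showed a wide spread over the preparations, with differences of 5.89, 4.2 and 1.08.

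**Figure D1:**
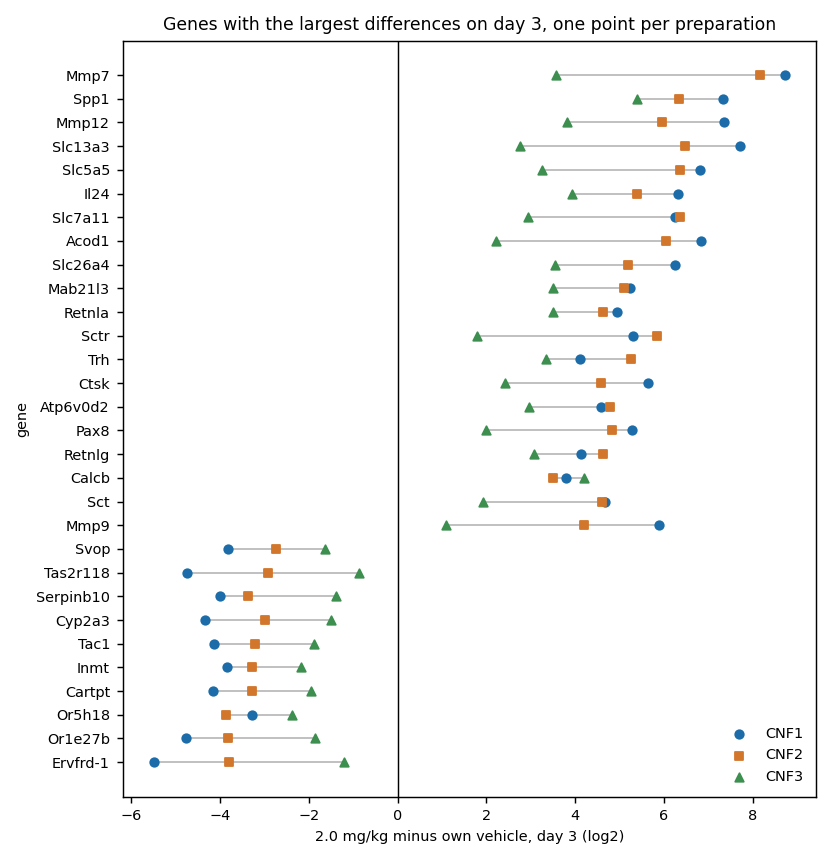
The 2.0 mg/kg value minus the vehicle value of the same preparation on day 3, in log2, for the 20 genes with the largest positive and the 10 with the largest negative mean differences among those that passed with centred arrays. Each point is 1 pair of arrays and the grey line spans the 3 pairs. CNF3 lies nearest to 0 in 19 of the 20 upper genes and in all 10 lower genes.

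**Figure D2:**
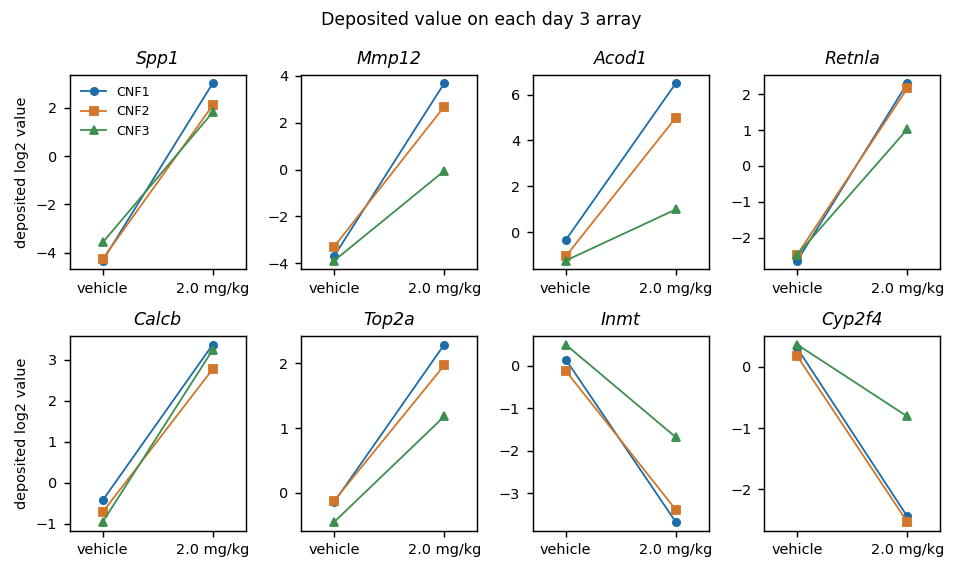
Deposited log2 value of 8 genes on each of the 6 arrays, with the vehicle on the left and 2.0 mg/kg on the right of each panel. Lines join the 2 arrays of a preparation, and the groups do not overlap in any of the 8 panels. The 8 genes were picked for display, so this separation describes only them. Over all genes, groups were apart with exposed arrays higher in 21.8% and lower in 14.8%.

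Of the 13 matrix metalloproteinases and inhibitors measured, 5 passed as higher and 1 as lower, and the list median was 0.5 beside 0.0 over all genes. The lower gene was Mmp8, the neutrophil collagenase, at -1.48 ± 0.35 (adjusted p = 0.028). Mmp14, a membrane-bound protease that activates other members, was at 1.01 ± 0.21.

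Genes of phagocytes were higher in several lists. Of the 16 genes of phagocyte activation, fusion and lipid handling, 9 passed as higher and 0 as lower, and the median was 1.19. Atp6v0d2, which encodes part of the proton pump in acidifying vesicles of osteoclasts and macrophages, stood at -2.09, -2.14 and -2.01 with the vehicle and at 2.49, 2.65 and 0.95 after exposure. Trem2, a lipid-sensing receptor of macrophages, differed by 2.95 ± 0.27, and Gpnmb, a membrane glycoprotein made by foamy macrophages, by 2.58 ± 0.27. Ctsk, the collagen-degrading protease cathepsin K, had differences of 5.63, 4.59 and 2.41. Of 15 macrophage and monocyte markers 6 passed as higher and 0 as lower (median 0.87). Cd68, a glycoprotein of macrophage lysosomes, was at 1.87 ± 0.3 and Ms4a7, a membrane protein of macrophages, at 2.68 ± 0.56. The receptor genes Csf1r (-0.39) and Adgre1 (-0.36) and the alveolar macrophage regulator Pparg (-0.39) had negative mean differences and did not pass. In whole lung, more cells of a type and more RNA per cell cannot be told apart.

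In the lysosome list 6 of 18 genes passed as higher and 0 as lower, with a median of 0.72. The cysteine protease cathepsin S (Ctss) differed by 1.31 ± 0.2 and the cholesterol-binding protein Npc2 by 1.0 ± 0.15. Differences for the membrane proteins Lamp1 and Lamp2 were 0.01 and -0.03. Acod1, which makes itaconate in activated macrophages, was at -0.34, -1.05 and -1.24 with the vehicle and at 6.49, 4.99 and 0.99 after exposure. Slc13a3, a transporter that can carry itaconate into cells, had differences of 7.71, 6.48 and 2.76. Both passed, with adjusted p of 0.0093 and 0.0085, and in both the CNF3 difference was the smallest.

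Of 8 CC chemokines that attract monocytes 5 passed as higher (4.57% of all genes did) and 0 as lower, and their median was 1.87. Among those that did not pass, 2 were lower in all 3 pairs, 1 of them with groups that did not overlap. Ccl9 stood at 3.09 ± 0.3, Ccl2 at 2.4 ± 0.42 and Ccl7 at 2.61 ± 0.54. Ccr2, the receptor of Ccl2 and Ccl7, differed by 1.73 ± 0.33 and was 1 of 2 genes that passed among 7 chemokine receptors. Of the 5 neutrophil-attracting CXC chemokines, only Cxcl2 passed, at 1.18 ± 0.21, while Cxcl1 stood at -0.67 ± 0.16 and did not pass.

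Neutrophil markers were divided. Of 19 measured, 6 passed as higher and 1 as lower, with a median of 0.15. Those that were higher included Retnlg, a secreted resistin-like protein, at 3.94 ± 0.34, the surface protein Cd177 at 1.85 ± 0.25 and the integrin Itgam, which macrophages also carry, at 3.0 ± 0.64. The calprotectin subunits S100a8 and S100a9, abundant in neutrophils, were at -0.73 and -0.51, and the granule enzyme genes Mpo and Elane were at 0.21 and -0.05. None of these 4 passed.

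Of 16 genes for type 2 chemokines, cytokines and effectors, 10 passed as higher and 0 as lower, with a median of 1.34. Over all genes 4.57% passed as higher and 1.94% as lower. The list was not of 1 direction: 4 members had every exposed array below every vehicle array (14.8% of all genes), though none of them passed. Retnla, a resistin-like protein of alternatively activated macrophages and of epithelium, stood at -2.64, -2.47 and -2.47 with the vehicle and at 2.3, 2.16 and 1.02 after exposure. The chemokines Ccl17, Ccl22 and Ccl24 had CNF1 differences of 5.09, 4.79 and 4.96 and CNF3 differences of 1.08, 0.89 and 0.61. Il5, which acts on eosinophils, differed by 1.89 and Il13, which drives mucus production, by 1.06. The eosinophil peroxidase gene Epx (0.16) and the mast cell proteases Tpsab1 (-0.01) and Cpa3 (0.14) did not pass, and 1 of 10 mast cell and eosinophil markers did, the chymase gene Cma1 at 0.98 ± 0.21. The median of this type 2 list was 2.0 for CNF1, 1.6 for CNF2 and 0.39 for CNF3.

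Cell division genes were higher nearly throughout. Of 21 mitosis genes 20 passed as higher and 0 as lower, and the same 20 had groups that did not overlap (21.8% of all genes had exposed arrays above every vehicle array). Their median was 1.83, and it was 2.15, 1.94 and 1.51 for CNF1, CNF2 and CNF3. Top2a, the topoisomerase that untangles DNA before division, stood at -0.14, -0.12 and -0.45 with the vehicle and at 2.29, 1.97 and 1.18 after exposure. Birc5 (survivin) differed by 2.29, the cyclin gene Ccna2 by 2.27 and the proliferation marker Mki67 by 1.81. The exception was the kinase gene Aurkb, with differences of -0.5, 0.19 and 0.82. Of 19 DNA replication genes 14 passed as higher and 0 as lower (median 1.18), with Ccne1, the cyclin of entry into S phase, at 2.31 ± 0.3 and the helicase subunit Mcm5 at 1.49 ± 0.19. All 19 had groups that did not overlap.

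The promoters of 3 mitosis genes are printed because members of this list moved together and are known to share 2 promoter elements, the cell cycle homology region (TTTGAA) and the CCAAT box. The genes had the smallest p in the planned fit among members with a promoter in the table. Each sequence is the gene's strand from 250 bases before to 50 bases after the annotated start, from RefSeq on the GRCr8 build, with matches to either motif on either strand in capitals.
Ccnb2, chr8:79981609-79981908, minus strand: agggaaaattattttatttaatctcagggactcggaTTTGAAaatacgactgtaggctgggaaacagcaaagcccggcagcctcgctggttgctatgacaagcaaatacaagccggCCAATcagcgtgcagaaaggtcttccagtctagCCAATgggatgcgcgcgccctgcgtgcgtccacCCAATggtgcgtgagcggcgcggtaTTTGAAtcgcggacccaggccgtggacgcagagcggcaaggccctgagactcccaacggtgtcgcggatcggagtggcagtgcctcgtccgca
Nusap1, chr3:127057045-127057344, plus strand: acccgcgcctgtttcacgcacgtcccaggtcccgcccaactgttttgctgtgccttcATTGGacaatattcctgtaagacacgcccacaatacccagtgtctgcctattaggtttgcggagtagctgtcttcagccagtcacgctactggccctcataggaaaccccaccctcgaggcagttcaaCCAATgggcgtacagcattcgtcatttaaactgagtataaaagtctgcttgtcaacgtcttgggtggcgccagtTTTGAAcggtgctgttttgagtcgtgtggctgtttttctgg
Top2a, chr10:84473044-84473343, minus strand: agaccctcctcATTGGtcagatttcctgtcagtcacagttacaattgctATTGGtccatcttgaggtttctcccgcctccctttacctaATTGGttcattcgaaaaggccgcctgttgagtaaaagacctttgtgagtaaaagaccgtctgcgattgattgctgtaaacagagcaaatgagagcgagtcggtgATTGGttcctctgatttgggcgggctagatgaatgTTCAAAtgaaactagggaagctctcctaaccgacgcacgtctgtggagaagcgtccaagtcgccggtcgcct

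Ccnb2, a mitotic cyclin, holds 2 matches to TTTGAA and 3 to CCAAT. Nusap1, which binds spindle microtubules, holds 1 and 2, and Top2a holds 1 and 4. TTTGAA was found in 68.8% of the 16 mitosis promoters in the table, in 7.14% of the 14 DNA replication promoters and in 14.8% of the 13146 promoters of measured genes. CCAAT was found in 81.2% of the mitosis promoters, in 64.3% of the DNA replication promoters and in 37.7% of all 27457 promoters of the table, where TTTGAA was found in 18.1%. A match is a description of the letters and not evidence of binding.

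Day 3 was set against days 1 and 7 in a fit of the 18 arrays of these days. The fit shares 1 spread over these days. The 3 pair differences spread more on day 3 (median SD 0.313) than on days 1 and 7 (0.211 and 0.207). What this did to the p-values of the contrasts was not tested. For mitosis genes the median effect was 0.8 on day 1, 1.83 on day 3 and 0.73 on day 7. The day 3 effect was above that of day 1 in all 21 genes, and in 7385 of all 15925 genes. Of the 21, 18 were above at an unadjusted p under 0.05, where 5.45% of all genes were higher and 3.06% lower on day 3. The day 3 effect was above that of day 7 in all 21, and in 8960 of all 15925 genes. Of the 21, 20 were above at that threshold (4.85% of all genes were higher and 2.06% lower). For DNA replication genes the medians were 0.75, 1.18 and 0.19, and 3 of 19 were above day 1 and 19 of 19 above day 7 at an unadjusted p under 0.05. Lysosome genes had medians of 0.05, 0.72 and 0.94, with 9 of 18 above day 1 and 0 above day 7. After adjustment over all genes 0 of 15925 (0.0%) differed between days 1 and 3, with a smallest adjusted p of 0.22, and 1355 had an unadjusted p under 0.05. Between days 3 and 7, 3 genes (0.0188%) passed with the values as deposited, and 2 with centred arrays.

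**Figure D3:**
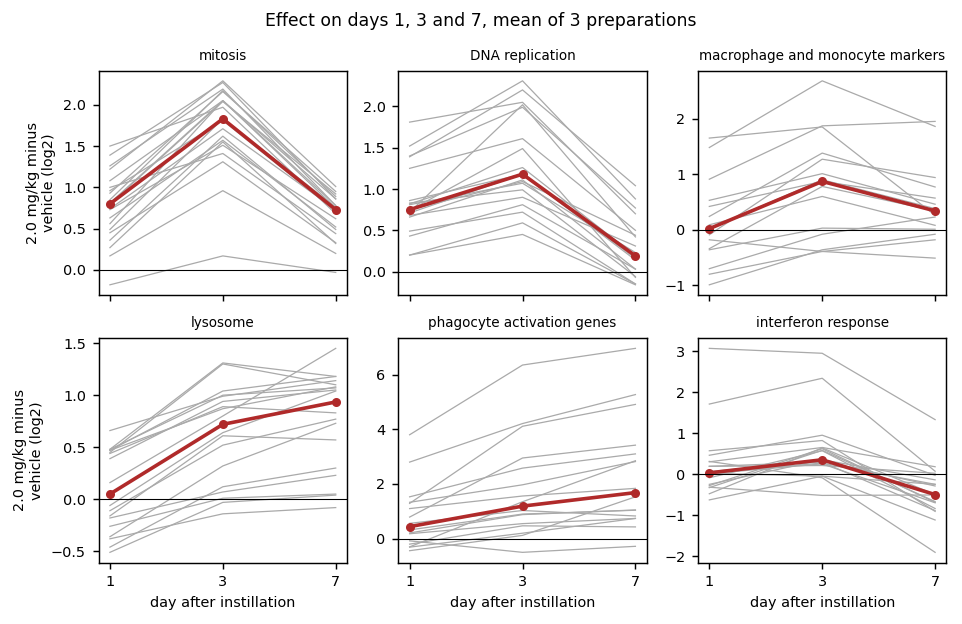
Mean difference of 2.0 mg/kg from the vehicle over the 3 preparations, in log2, on days 1, 3 and 7 for 6 gene lists. Grey lines are genes and the red line is the list median, which for mitosis runs from 0.8 through 1.83 to 0.73.

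The 3 genes that differed from day 7 with the values as deposited were E2f8, Mt3 and Cst6, and the adjusted p given first for each gene is from that fit. E2f8, a transcription factor of the cell cycle, had day 3 differences of 1.82, 2.03 and 1.64 and day 7 differences of 0.4, 0.44 and 0.23, so the day 3 effect was larger by 1.47 ± 0.14 (adjusted p = 0.029). Mt3, a metallothionein and so a metal-binding protein, had differences of 0.22, 0.89 and 1.34 on day 3 and of 5.59, 4.59 and 5.01 on day 7, a contrast of -4.25 ± 0.35 (adjusted p = 0.023). Cst6, a secreted inhibitor of cysteine proteases, went from -0.43, -0.19 and -0.16 on day 3 to 1.7, 2.12 and 1.89 on day 7. In each of these genes the 3 preparations of 1 day were apart from those of the other day. None of the 3 passed when any 1 preparation was left out, and none passed against a minimum fold of 1.5 (adjusted p of 0.57 for E2f8, 0.053 for Mt3 and 0.12 for Cst6). With centred arrays Mt3 (0.0054) and Cst6 (0.0055) passed and E2f8 (0.087) did not. With quantile normalization only Cst6 passed of the 3. With 5 days in the fit E2f8 passed (0.012) while Mt3 (0.055) and Cst6 (0.23) did not.

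Most interferon response genes did not pass on day 3. Of 19 measured, 2 passed as higher, where 4.57% of all genes did. These were the chemokines Cxcl11 at 2.95 ± 0.65 and Cxcl10 at 2.34 ± 0.43, and the list median was 0.35. The day 7 median of the list was -0.5. In 18 of the 19 the effect was higher on day 3 than on day 7, 11 of them at an unadjusted p under 0.05. Over all genes it was higher on day 3 in 8960 of 15925, and in 4.85% at that threshold. Ifit2, an antiviral protein, showed the division between preparations, at 1.81, 1.09 and -0.05.

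Secreted defence and stress genes were higher in part, where 4.57% of all genes passed as higher. Of 17 acute phase, complement and defence genes 7 passed as higher and 0 as lower (median 0.72), led by Lcn2, which binds bacterial siderophores, at 3.71 ± 0.57. Of 12 NRF2 targets 2 passed: Slc7a11, the cystine transporter, at 5.18 ± 0.75 and Hmox1, heme oxygenase, at 1.6 ± 0.21. In the cholesterol synthesis list 2 of 12 passed as higher and 0 as lower, with a median of 0.55. Its exposed arrays were above every vehicle array in 11 genes (21.8% of all genes). Among 18 matrix and fibrosis genes 5 passed as higher, including Cthrc1, a secreted collagen-related protein, at 1.37 ± 0.16, and the median was 0.32.

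Of 13 genes of injured or transitional epithelium 4 passed as higher (4.57% of all genes did) and 0 as lower. The list median was 0.67, and it was 0.9, 0.99 and 0.23 for CNF1, CNF2 and CNF3. In all 3 pairs 2 members were lower, 1 of them with groups that did not overlap. Il24, a cytokine of the interleukin 10 family, stood at -0.94, -0.73 and -0.9 with the vehicle and at 5.38, 4.68 and 3.02 after exposure. Slc26a4, the anion exchanger pendrin, differed by 6.24, 5.19 and 3.54. Of 11 club and goblet cell genes 2 passed as higher, Clca1 (2.06 ± 0.23), a secreted protein of goblet cells, and the mucin Muc5ac (1.25 ± 0.22), and 2 as lower.

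Xenobiotic enzymes were the lowest list. Of 12 measured, 9 passed as lower and 0 as higher, and the median was -1.29. Cyp2f4, a cytochrome P450 of club cells, stood at 0.3, 0.17 and 0.36 with the vehicle and at -2.44, -2.53 and -0.81 after exposure. Cyp2a3 had differences of -4.33, -2.99 and -1.5, and Fmo2, a flavin monooxygenase of lung, of -3.11, -2.02 and -0.8. Inmt, a methyltransferase abundant in lung, was at 0.15, -0.12 and 0.5 with the vehicle and at -3.68, -3.39 and -1.68 after exposure. The CNF3 pair differed least in each of these 4 genes.

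No alveolar type 1 marker passed, with a median of -0.61 over 9 genes, 5 of which had every exposed array below every vehicle array (14.8% of all genes). Of 13 endothelial genes 2 passed as lower (median -0.68), among them Ednrb, the endothelin B receptor, at -1.18 ± 0.21. Of 9 ciliated cell genes none passed (median -0.53). Among 12 surfactant and type 2 cell genes none passed and the median was 0.23. Natural killer markers had a median of -0.6 over 10 genes, of which 1 passed as lower and 0 as higher. In all 3 pairs 7 of them were lower and 2 higher. The activating receptor Ncr1 was lower at -1.21 ± 0.27. Lists of red cell and heart muscle genes also had negative medians. All 5 red cell genes had groups apart with the exposed arrays lower (median -0.85, 1 passed, Hbb at -1.68 ± 0.39), as had 9 of 12 cardiac muscle genes (median -0.75). The part of blood content or of the piece of tissue sampled in these negative medians was not tested.

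Several of the genes with the largest negative differences belong to viral or sensory receptor families. Ervfrd-1 is an endogenous retroviral envelope gene, Or1e27b and Or5h18 are olfactory receptor genes and Tas2r118 is a bitter taste receptor gene. Or1e27b had differences of -4.77, -3.83 and -1.85. Of the 1039 olfactory receptor genes, 14 passed as lower and 6 as higher, a smaller share in each direction than the 1.94% and 4.57% of all genes. One control spot, named ETG10_13482, also passed in a fit of the 91 control spots. It had differences of -5.72, -4.75 and -1.7. Among the 10 leading lower genes CNF3 likewise had the smallest difference in all 10 and CNF1 the largest in 9.

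**Figure D4:**
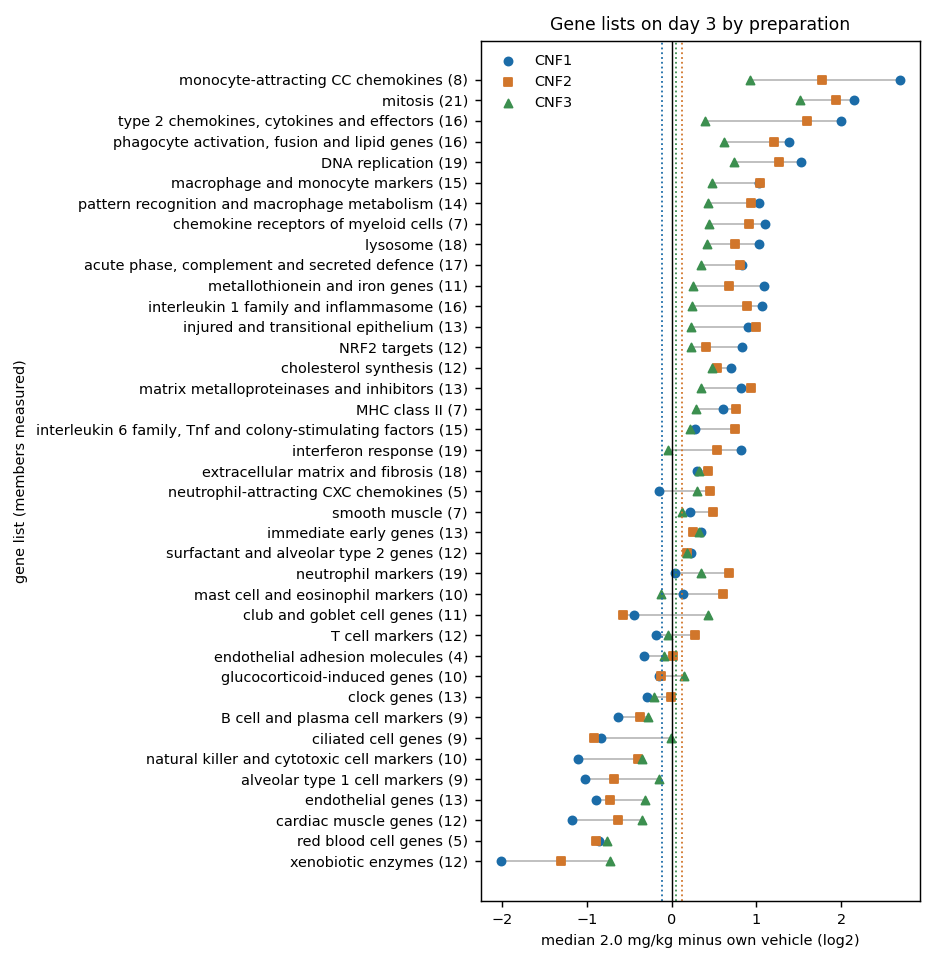
Median over the measured members of each of 39 gene lists of the 2.0 mg/kg minus vehicle difference on day 3, in log2, for each preparation. Dotted lines mark the median over all genes in each preparation. The CC chemokine and mitosis lists lie highest and the xenobiotic enzymes lowest.

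The 3 preparations differed in the size of their differences, each known from 1 pair of arrays. At least 2-fold differences were counted in 1448 genes upward and 2097 downward for CNF1, in 1345 and 618 for CNF2 and in 554 and 122 for CNF3. All 3 preparations shared 250 such genes upward and 56 downward. CNF3 had the difference smallest in size in 926 of the 1037 genes that passed. Its differences were also the least spread over all genes, with an SD of 0.44 against 0.93 for CNF1 and 0.73 for CNF2. The share of all genes in which CNF3 was smallest was not counted, so 926 is not read as particular to the passing genes. Over all genes the pair differences correlated with r = 0.67 between CNF1 and CNF2, 0.45 between CNF1 and CNF3 and 0.6 between CNF2 and CNF3, which is across genes, and each pair's arrays share whatever shift they carry. Calcb, which encodes the beta form of the neuropeptide CGRP, was the exception among the leading genes, with differences of 3.8, 3.49 and 4.2. No test of these differences is possible with 1 pair per preparation.

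Genes with the widest range over the preparations included Tmem213, a small membrane protein, at 4.41, 6.46 and -0.9, where its vehicle arrays alone ran from -3.29 to 1.85. Ibsp, bone sialoprotein, differed by 3.96, 5.39 and -0.46. Orm1, an acute phase plasma protein, differed by 6.68, 3.3 and 1.18. For Pp2d1 the range came from 1 vehicle array at 3.65.

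At the lower doses on day 3 the leading genes also differed from the vehicle, on 1 array per dose and preparation. Spp1 was at 4.79, 4.87 and 2.65 above the vehicle at 0.5 mg/kg for CNF1, CNF2 and CNF3, and at 6.26, 5.77 and 4.88 at 1.0 mg/kg. Mmp7 was at 5.89, 7.14 and 4.5 and then at 7.51, 6.16 and 5.82. For CNF3 the Mmp7 difference at 2.0 mg/kg, 3.57, was therefore below that at both lower doses. Cyp2f4 was at -1.48, -2.09 and -1.26 at 0.5 mg/kg and at -2.48, -1.97 and -1.23 at 1.0 mg/kg. The 15 spike-in and negative spots stood above the vehicle by 0.85, 2.0 and 1.31 at 0.5 mg/kg, by 1.92, 2.97 and 0.79 at 1.0 mg/kg and by 0.66, 1.37 and 0.4 at 2.0 mg/kg, so no dose order is read from these single arrays.

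**Figure D5:**
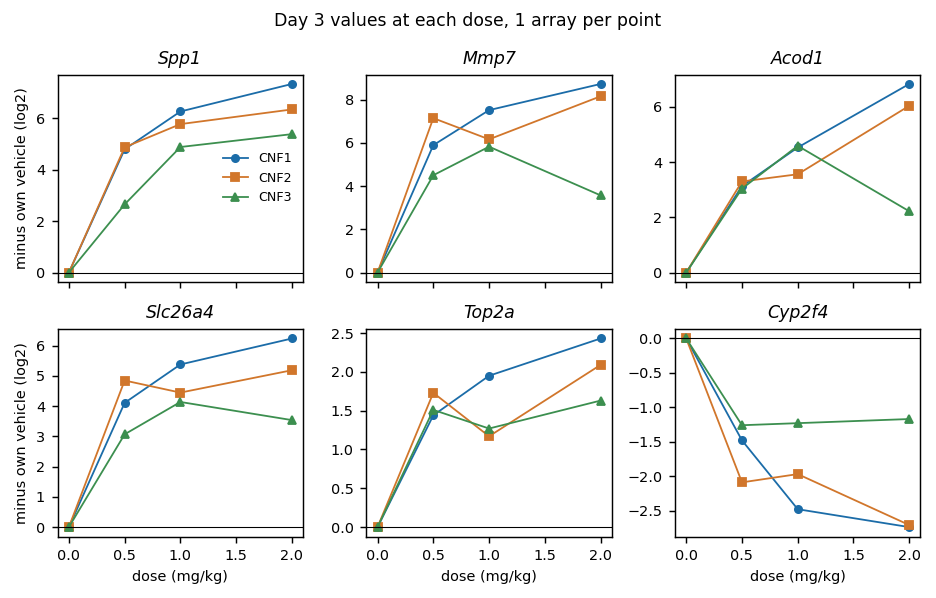
Difference from the vehicle of the same preparation on day 3, in log2, against the labelled dose in mg/kg for 6 genes. Each point is 1 array minus its vehicle array and the point at 0 is the vehicle itself. The CNF3 value of Mmp7 is 3.57 at 2.0 mg/kg and 5.82 at 1.0 mg/kg.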

How the data were processed

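RNA of rat lung was hybridised to Agilent one-colour (Cy3) arrays, with Agilent Feature Extraction 12.0.3.1 named in the submitters' processing notes. The deposited log2 values had been normalized by the authors and centred for each probe, as judged from the values. The log base is not given in the sources used here and was taken as 2. Slides and scan dates were not used here. Of 41012 rat probes, 20932 carried 1 symbol and gave 15925 genes by averaging, and probes without a symbol (20080) were left out of gene values. Sequences are from RefSeq.

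The members and gene lists (39 lists, 478 measured genes) were chosen with earlier results of these data known. The planned test was limma 3.58.1 in R 4.3.3 (lmFit and eBayes), 6 arrays, preparation as a block because each has its own vehicle, with Benjamini-Hochberg adjustment over all genes. It passed 0 genes, so its rule for named genes (20 largest rises, 10 largest falls among passing genes, up to 4 list members with the smallest p, the 8 widest ranges) named no rise or fall. The rule was then applied to the fit with centred arrays, a listed alternative chosen for this after the counts under every setting had been seen. Members given to show the range of a list, and genes of lower doses, were picked after their values were seen. Differences printed are as deposited, not centred. The SE printed is that of the planned fit, and adjusted p, unless said otherwise, is from the centred fit for day 3 and from the values as deposited for the contrasts between days. Days 1, 3 and 7 were compared in 18 arrays with 6 residual degrees of freedom.

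On simulated data with 100 of 15925 genes changed at each fold, the centred fit recovered 0% at 2-fold and 53% at 4-fold. The day 7 contrast recovered 44% and 81%, and the day 1 contrast 40% and 70%. Precision is limited by the number of arrays: the median SE of a day 3 difference was 0.18 as deposited and 0.23 with centred arrays. The calls come from the centred fit, so the printed SE is not the one behind its adjusted p. The prior degrees of freedom that limma estimated were 2.56 as deposited and 6.61 with centred arrays. Alternatives were another block, scaling, probe summary, robust variances, a minimum fold of 1.5, other arrays in the fit, and leaving out each preparation. Figures were made with Python 3.11.15 and matplotlib 3.10.9.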

Additional observations from a re-analysis of the deposited data

Results flagged for a closer look

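Mt3 was picked out because its effect differed between days 3 and 7 by -4.25 ± 0.35 in the limma contrast of the values as deposited (adjusted p = 0.023), lower on day 3 in 3 of 3 preparations. Cst6 differed between these days by -2.17 ± 0.19 (adjusted p = 0.023), also lower on day 3 in 3 of 3. For E2f8 the contrast was 1.47 ± 0.14 (adjusted p = 0.029), higher on day 3 in 3 of 3. The control spot ETG10_13482, which belongs to no comparison of genes, differed from the vehicle by -4.06 ± 0.7 on day 3 (limma over the 91 control spots, adjusted p = 0.035). It was the 1 spot of 91 that passed, and 22 had an unadjusted p under 0.05. Groups of 3 arrays are too small for the test of single outlying arrays.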

How the results depend on the processing

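The planned day 3 test passed 0 genes, and the count depended on the setting. It was 0 with the median of probes, robust variances, a minimum fold of 1.5, every probe tested alone or any preparation left out (0 to 0). It was 151 without the replicate block, 1037 with centred arrays, 1584 with quantile normalization and 2074 with 4 vehicle arrays and no block. With the spread of 5 days it was 6514, and with that of 3 days, added after seeing the data, 4794. The calls in the text use the centred setting, picked after these counts were known. Its own alternatives, all added after seeing the data, gave 230 without the replicate block, 148 with a minimum fold of 1.5, 1584 with quantile normalization and 5905 with the spread of 5 days. Leaving out 1 preparation gave 140 (without CNF1) to 2476 (without CNF3), with 663 without CNF2. The 5-day fit was first considered for the calls and set aside because the 3 pair differences spread more on day 3 (median SD 0.313) than on days 1, 7, 30 and 90 (0.211, 0.207, 0.151 and 0.149). Its alternatives, also added, gave 532 with a minimum fold of 1.5, 619 with 3 control spot factors, 5905 with centred arrays, 4938 with quantile normalization and 5854 without the block. Leaving out a day 3 pair gave 3647 to 7373 (without CNF1 and without CNF3, with 4260 without CNF2). The causes of these changes were not tested.

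Day 3 against day 1 passed 0 genes, but 1 without the block, 4 with quantile normalization and 13 with 5 days. Day 3 against day 7 passed 3 genes, but 1 with quantile normalization, 0 with a minimum fold of 1.5 and 0 to 0 with a preparation left out. With 5 days in the fit it also passed 3, of which only E2f8 was shared, since Mt3 (adjusted p = 0.055) and Cst6 (0.23) did not pass. For the 34 genes followed on day 3 (the named rises and falls and 4 cell cycle genes), no listed setting that was run changed a sign. In 223 cases the side of the threshold was kept, and in 185 the gene passed where it had not in the planned test. These counts were partly fixed in advance. The 20 rises and 10 falls were picked for the same sign in all 3 pairs, so leaving out a preparation could not change their sign. They were also picked because they passed with centred arrays, which is itself among the settings counted. Dropping the block, robust variances, the minimum fold and more days in the fit left the estimates unchanged. The block rests on each preparation's own vehicle. As deposited, deviations of arrays with the same number correlated by -0.06, 0.1 and 0.33 for CNF1, CNF2 and CNF3. Dropping the block moved the count from 0 to 151 as deposited and from 1037 to 230 with centred arrays. Whether arrays of the same number are paired beyond this was not tested. Without signal levels, low and undetected genes could not be set apart.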

Other observations

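The genes of this section were chosen after their values were seen. Slc5a5, the sodium iodide symporter, stood at -1.35, -1.18 and -1.28 with the vehicle and at 5.45, 5.18 and 1.96 after exposure. Pax8, a transcription factor that drives that gene in thyroid, differed by 5.28, 4.82 and 1.99. The hydrogen peroxide producing oxidases Duox2 and Duox1 differed by 3.65 ± 0.63 and 1.67 ± 0.29, and both passed with centred arrays. Lpo, lactoperoxidase, differed by 3.08, 2.99 and 0.01 and did not pass. The thyroid genes Tg and Tshr stood at 0.2 ± 0.18 and -0.72 ± 0.21 and did not pass.

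Peptide genes went both ways. Trh, the precursor of thyrotropin-releasing hormone, stood at 4.23 ± 0.4 on day 3 and at 0.34 on day 1, a difference of 3.89 ± 0.73 with an adjusted p of 0.33. Sct, secretin, differed by 4.66, 4.6 and 1.93, and its receptor gene Sctr by 5.31, 5.85 and 1.79. Tac1, the precursor of substance P, differed by -4.14, -3.22 and -1.88 and Cartpt by -4.15, -3.29 and -1.94. The neuroendocrine cell genes Calca (-0.06 ± 0.17), Grp (0.04 ± 0.33) and Chga (-0.07 ± 0.25) did not pass.

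Il9, a type 2 cytokine, was at 3.05 on day 1 and at -0.04 ± 0.32 on day 3, a difference of -3.09 ± 0.59 with an adjusted p of 0.33. Pla2g10, a secreted phospholipase, stood at 3.04, 2.94 and 2.83 on day 3, a mean of 2.94 ± 0.15, against 0.86 on day 1, a difference of 2.07 ± 0.22 with an adjusted p of 0.22.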
